A study of Homo sapiens with 4 samples.

Results

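The matrix metalloproteinase (MMP), ADAMTS and tissue inhibitor of metalloproteinase (TIMP) genes were followed in SKOV3, a human cell line established from an ovarian cancer, by mRNA sequencing. Members were chosen by symbol alone: every MMP, ADAMTS or TIMP symbol followed by a number, with 1 transcript kept for each symbol. This gave 46 genes of the 19475 symbols in the table, made up of 23 MMP, 19 ADAMTS and 4 TIMP genes. The rule used no measured difference between the groups, but the members were chosen with earlier results of these data known.

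The libraries formed 2 groups of 2. The first group held SKOV3 cells on a tissue culture plate (TCP), labelled day 0. The second held tumor spheroids of the same line on a plate coated with polymer X, labelled day 8. Substrate and day changed together, and the culture medium of the TCP cells was described differently in the labels, which name serum replacement for all libraries, and in the study's methods, which keep SKOV3 in serum. According to the methods, the spheroids were also dissociated with an enzyme solution at intervals. These differences cannot be told apart. Both groups come from a single cell line. The study's methods speak of independent replicates for its experiments in general, in a greater number than the libraries of a group here, and the labels do not say whether these libraries were separate cultures. P-values therefore measure only the spread between these libraries, which may be technical. In bulk RNA, fewer cells that express a gene and less RNA per cell cannot be told apart.

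MMPs are zinc-dependent proteases that are made as inactive precursors and, once their propeptide is removed, cut collagens, gelatin, laminin and other proteins of the extracellular matrix. ADAMTS proteases are secreted relatives with thrombospondin motifs, and their known substrates include aggrecan, versican, procollagens and von Willebrand factor. TIMPs block the active site of most MMPs and, TIMP3 above all, of several ADAMTS and ADAM proteases. Ovarian cancer spreads within the peritoneal cavity partly as floating cell clusters, and matrix proteases have long been studied there for their part in attachment and invasion.

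Levels are given as FPKM, fragments scaled to transcript length and to the mapped tags of the library, which can be compared between genes because they are per length. Tests were run on log2(FPKM + 1) with limma across 11964 genes that reached an FPKM of 1 in at least 2 libraries, and a gene was called at an adjusted p under 0.05 where its log2 fold change was also 1 or more in size. The table was scaled to between 38403000 and 44917000 tags a library, and replicates correlated at 0.998 on TCP and 0.997 on polymer X across genes. The epithelial and lineage genes of SKOV3 were present but moved between the groups. ERBB2 went from 198 and 206 to 913 and 860 FPKM (log2 fold change 2.13) and PAX8 from 48.8 and 50.5 to 102 and 108 (1.06), both called higher. KRT8, KRT7 and KRT18 were expressed in every library with log2 fold changes of -0.87, -0.76 and -0.44 and no call, and KRT19 stayed at or under 0.734 FPKM. Markers of leukocytes summed to 0.160 and 0.096 FPKM on TCP against 0.823 and 0.962 on polymer X over 4 genes, with CD3E at 0 in every library. Most of the polymer X sum was PTPRC, which went from 0.005 and 0 to 0.468 and 0.530 FPKM and was not tested. The 3 endothelial markers summed to 0.009 and 0.019 FPKM on TCP against 0.617 and 0.489 on polymer X. Most of the latter was PECAM1, at 0 in both TCP libraries and at 0.573 and 0.458 FPKM on polymer X, and not tested. CDH5 and VWF stayed at or under 0.025 FPKM. The 3 fibroblast markers summed to 8.34 and 8.56 FPKM on TCP against 11.2 and 9.99 on polymer X. Among these, DCN went from 0.025 and 0 to 7.26 and 6.20 FPKM, COL1A1 from 8.21 and 8.48 to 3.81 and 3.77 FPKM, and PDGFRB stayed at or under 0.115 FPKM. The part of these markers in the results on proteases was not tested.

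On polymer X 6 secreted MMP genes were higher, ADAMTS1 and ADAMTS5 were lower, and TIMP1 was higher by a smaller factor than MMP1. Of the 46 members, 21 passed the filter on low values, namely 11 MMP, 8 ADAMTS and 2 TIMP genes. Among these 21, 9 were called higher, which is 42.9% against 10.7% of all tested genes, and 2 were called lower, which is 9.52% against 9.45%. The 9 called higher were MMP1, MMP2, MMP7, MMP10, MMP13, MMP19, ADAMTS7, ADAMTS13 and TIMP1, and the 2 called lower were ADAMTS1 and ADAMTS5. The filter itself favours a difference. ADAMTS7, ADAMTS13, ADAMTS17, MMP7, MMP10, MMP17 and MMP25 reached it through the polymer X libraries alone, and ADAMTS5 and ADAMTS6 through the TCP libraries alone, so these 9 had to differ. Of the other 12, which reached an FPKM of 1 in both groups, 5 were called higher, 1 lower and 6 were not called. Over the tested members the median log2 fold change was 0.95, against -0.06 over all tested genes, with medians of 1.08 for the MMP genes and -0.30 for the ADAMTS genes. These medians of members include the 9 that had to differ. Both groups were free of overlap for all 21 tested members, which is common in these libraries, since it held for 90.4% of all tested genes.

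**Figure D1:**
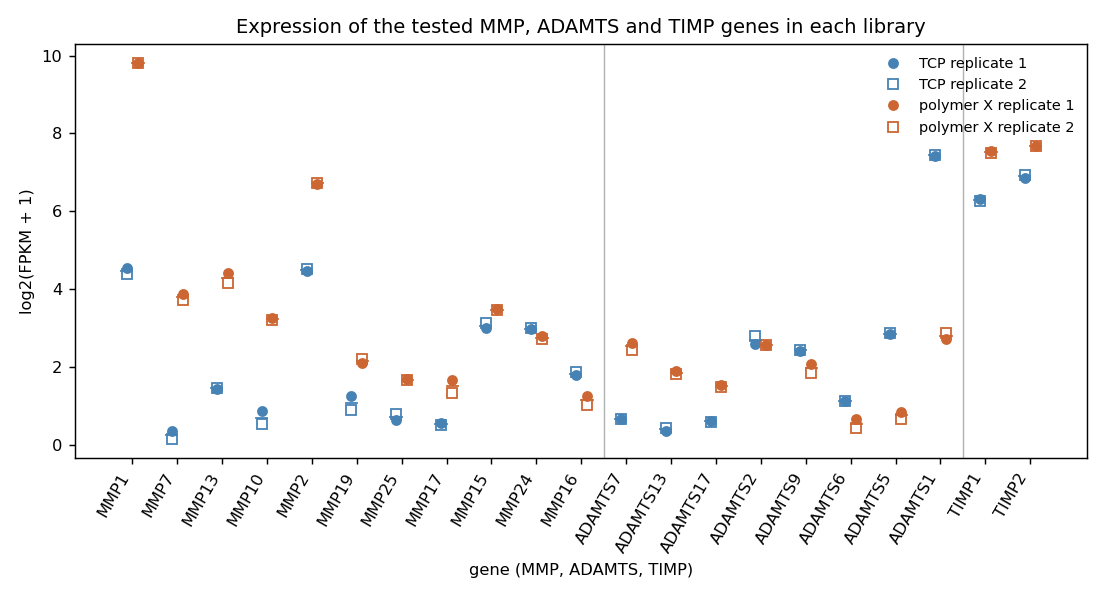
Level of each of the 21 tested members in every library, as log2(FPKM + 1) on the vertical axis, with MMP, ADAMTS and TIMP genes from left to right. Filled circles and open squares are replicates 1 and 2, blue is TCP and orange polymer X, and short bars are group means. MMP1 at 899 and 888 FPKM on polymer X is the highest point, and ADAMTS1 falls from 171 and 174 FPKM to 5.58 and 6.42.

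Among the collagenases, which make the first cut in fibrillar collagen, MMP1 showed the largest change of any member on the log2(FPKM + 1) scale. With a pseudocount of 0.1 its log2 fold change was 5.39 and that of MMP7 was 5.49. MMP1 (transcript NM_001145938, hg19 chromosome 11, 102660641 to 102668966, minus strand) was at 22.56 and 20.02 FPKM on TCP and at 899 and 888 FPKM on polymer X. Both polymer X libraries lay far above both TCP libraries. Its mean was 42.0-fold higher, with a log2 fold change of 5.33 (SE 0.07, 95% interval 5.18 to 5.48, adjusted p 8.7e-11 with limma), the 8th largest absolute change among all tested genes. Its 2 listed transcripts, which can share tags, gave log2 fold changes of 5.31 and 5.33.

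MMP13, a collagenase that also cleaves type II collagen efficiently, was at 1.74 and 1.79 FPKM on TCP and at 20.3 and 17.0 FPKM on polymer X. The groups did not overlap, and the fold was 10.6 (log2 fold change 2.82, SE 0.09, adjusted p 6.7e-09). MMP8, the collagenase of neutrophils, never had more than 2 tags and was not tested, so the collagenase signal on polymer X was that of MMP1 and MMP13.

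The gelatinases degrade denatured collagen and basement membrane collagen. MMP2 (hg19 chromosome 16, 55513081 to 55540603) was at 21.2 and 22.0 FPKM on TCP and at 103.8 and 104.7 FPKM on polymer X. The replicates lay close together in each group, and the mean was 4.83-fold higher (log2 fold change 2.22, SE 0.05, adjusted p 2.1e-09). All 5 of its listed transcripts gave log2 fold changes between 2.22 and 2.25, but they can share tags and are not independent. MMP9, the other gelatinase, was at 0.056 and 0.058 FPKM on TCP and at 0.431 and 0.646 FPKM on polymer X, or 5 and 6 tags against 40 and 61. MMP9 was higher in both polymer X libraries but stayed under the filter and was not tested, and its level on polymer X remained far under that of MMP2.

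Of the stromelysins, MMP3 and MMP10 cut a broad range of matrix proteins and can activate other MMP precursors. MMP10, or stromelysin 2, was at 0.835 and 0.459 FPKM on TCP and at 8.59 and 8.30 FPKM on polymer X, a fold of 13.1 (log2 fold change 2.53, SE 0.11, adjusted p 4.0e-08). The TCP libraries differed more from each other than the polymer X libraries did, and still lay far under them. MMP3, or stromelysin 1, had 7 and 11 tags on TCP and 32 and 37 on polymer X, and MMP11, or stromelysin 3, had 2 and 4 tags on TCP and 44 and 42 on polymer X. Both stayed under the filter and were not tested, and in both the polymer X libraries were the higher ones.

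MMP7, or matrilysin, is a small MMP without the hemopexin domain that is typically made by epithelial cells. It was at 0.280 and 0.120 FPKM on TCP, from 12 and 6 tags, and at 13.7 and 12.2 FPKM on polymer X, from 612 and 554 tags. The mean was 64.7-fold higher, the largest ratio among the tested members, and rests on few tags on TCP. On the log2(FPKM + 1) scale the change was 3.54 (SE 0.09, adjusted p 3.0e-09). MMP26, the other matrilysin, was at 0 tags in all 4 libraries.

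The membrane-type MMPs sit on the cell surface, where several of them activate other proteases. None of the 5 tested was called, which was common, since 9548 of the 11964 tested genes were not called. MMP25 and MMP17, both anchored by a lipid, were the closest to the fold minimum. MMP25 was at 0.574 and 0.730 FPKM on TCP and 2.24 and 2.18 on polymer X (log2 fold change 0.96, SE 0.09, adjusted p 5.1e-06). MMP17 was at 0.499 and 0.445 FPKM on TCP and 2.18 and 1.55 on polymer X (log2 fold change 0.95, SE 0.11, adjusted p 3.3e-05). Both were called without 1 of the libraries, MMP25 at 1.03 without TCP replicate 2 and MMP17 at 1.11 without polymer X replicate 2. With a pseudocount of 0.1 they were called at 1.63 and 1.76.

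MMP15, or MT2-MMP, was the membrane-type gene with the highest level on polymer X and overlapped with MMP24 on TCP, at 7.01 and 7.81 FPKM on TCP and 10.3 and 10.0 on polymer X (log2 fold change 0.41, adjusted p 0.00044). MMP24, or MT5-MMP, was at 6.84 and 7.01 FPKM on TCP and 5.95 and 5.64 on polymer X (log2 fold change -0.22, adjusted p 0.012). The tags of MMP24 are uncertain, because the counting ignored strand and the spans of the opposite-strand genes MMP24OS and MMP24-AS1-EDEM2 overlap its own. Whether their exons overlap was not checked. MMP16, or MT3-MMP, was at 2.46 and 2.65 FPKM on TCP and 1.41 and 1.05 on polymer X (log2 fold change -0.68, SE 0.10, adjusted p 0.00013). These 3 genes had an adjusted p under 0.05 with changes under the fold minimum, so the membrane-type genes were found on both sides of 0. MMP16 was called lower with a pseudocount of 0.1, at -1.01, and after quantile normalization, at -1.07.

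MMP14, or MT1-MMP, is the best known activator of the MMP2 precursor, which it processes together with TIMP2. It was at 0.603 and 0.783 FPKM on TCP and at 0.955 and 0.954 FPKM on polymer X, from 83 and 126 tags against 137 and 139. It was under the filter in every library, narrowly so on polymer X, and was not tested. Its level on polymer X was below that of MMP15 and of MMP2 in the same libraries.

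Of the other MMP genes, only MMP19 passed the filter. MMP19, which cuts basement membrane components, was at 1.41 and 0.858 FPKM on TCP and at 3.35 and 3.63 on polymer X (3.07-fold, log2 fold change 1.08, SE 0.12, adjusted p 2.1e-05). This call is marginal, since the log2 fold change was 0.895 without TCP replicate 2 and 0.796 after quantile normalization, both under the minimum. MMP12, or macrophage elastase, had 0 tags in both TCP libraries and 21 and 20 tags on polymer X, which is at least 7.01-fold higher when TCP is set to 3 tags a library. MMP28, or epilysin, was at 0.144 and 0.348 FPKM on TCP and 0.460 and 0.543 on polymer X, from at most 24 tags. MMP21 had 3 and 4 tags on TCP against 4 and 10 on polymer X, and MMP23B, which has a near-identical copy in MMP23A, had at most 8 tags with overlapping groups. MMP20, the enamel protease, and MMP27 were at or under 2 tags throughout.

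**Figure D2:**
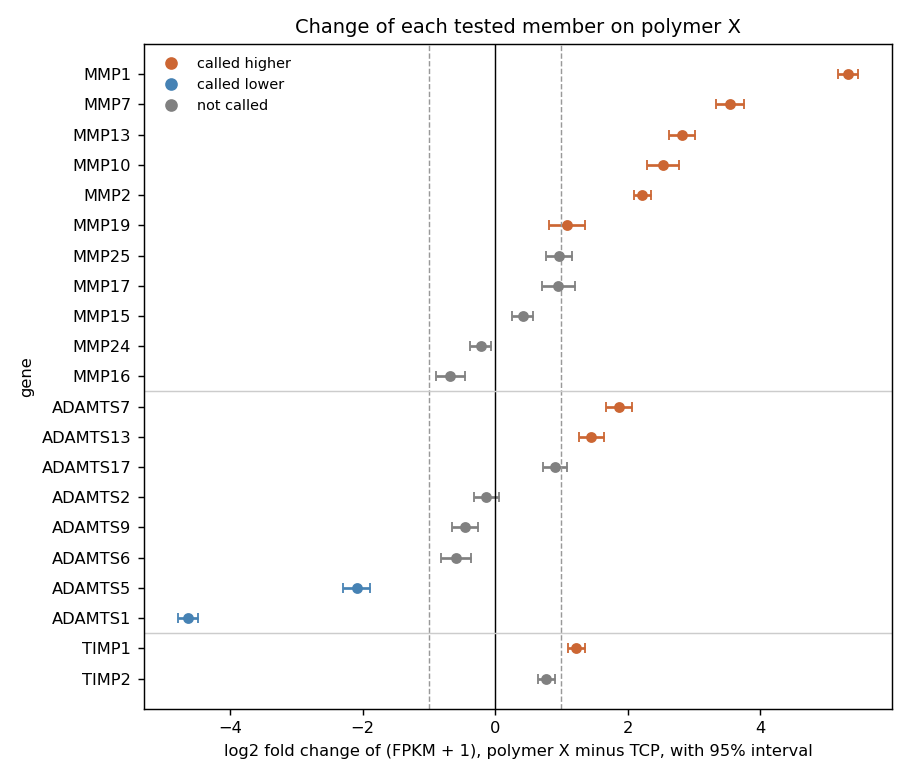
Log2 fold change of (FPKM + 1), polymer X minus TCP, on the horizontal axis for each of the 21 tested members, with 95% intervals from limma as bars. Orange points were called higher, blue points lower and grey points not called, and dashed lines mark the minimum of 1 in either direction. MMP1 at 5.33 and ADAMTS1 at -4.64 lie at opposite ends.

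MMP1, MMP3, MMP7, MMP8, MMP10, MMP12, MMP13, MMP20 and MMP27 are neighbours in a cluster of 9 MMP genes that spans 435.2 kb of hg19 chromosome 11, from 102391239 to 102826463. The 4 cluster genes that passed the filter (MMP1, MMP7, MMP10 and MMP13) were all called higher, against 10.7% of all tested genes. MMP7 and MMP10 reached the filter through the polymer X libraries alone and had to be higher there, whereas MMP1 and MMP13 reached it in both groups. MMP3 and MMP12 were also above TCP in both polymer X libraries at low tag numbers. MMP8, MMP20 and MMP27, which lie between MMP7 and MMP10, never had more than 2 tags. The summed level of the 9 genes was 25.5 and 22.5 FPKM on TCP and 942 and 926.4 FPKM on polymer X, of which most was MMP1.

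Of the genes that flank the cluster, 7 were tested and 0 were called with limma, and their median log2 fold change was 0.18. Of all tested genes, 10.7% were called higher and 9.45% lower, and 7 genes are few to set against these shares. On the side of MMP7, TMEM123 was at 106 and 105 FPKM on TCP and 122 and 118 on polymer X (log2 fold change 0.18). Further out on that side, the log2 fold change was -0.67 for the apoptosis inhibitor BIRC2, 0.19 for its neighbour BIRC3, -0.37 for the transcription coactivator YAP1 and 0.94 for CFAP300. On the side of MMP13, DCUN1D5 changed by -0.67 and DYNC2H1, a motor of cilia, by 0.995, just under the fold minimum. All 7 had an adjusted p under 0.05, so they were kept from a call by the size of their change. Such a p was common, since with no fold minimum 4477 of the 11964 tested genes were called higher and 5212 lower.

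**Figure D3:**
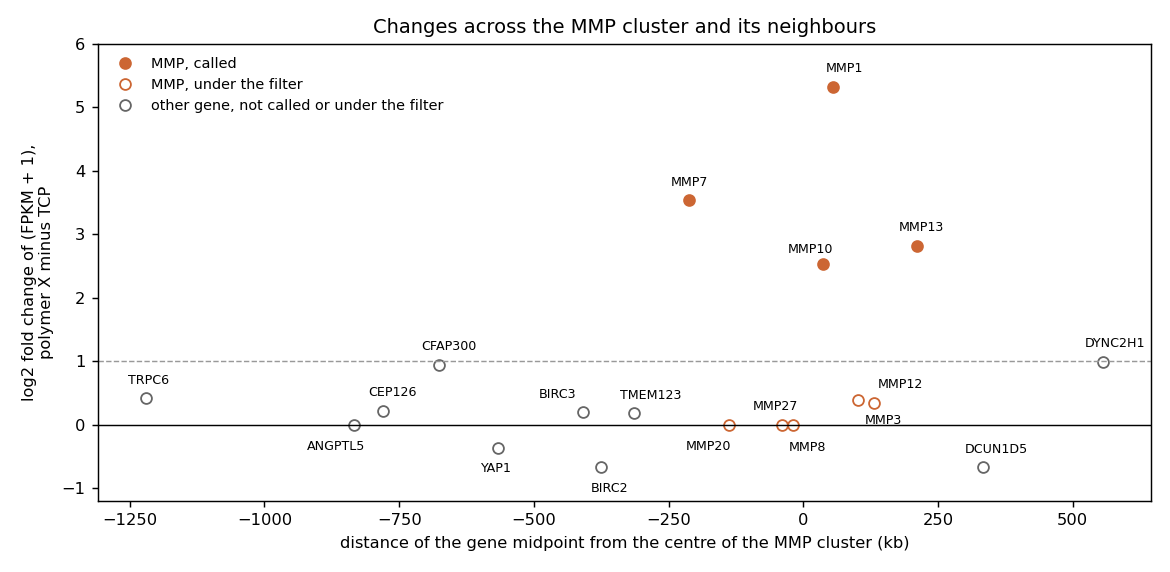
Log2 fold change of (FPKM + 1), polymer X minus TCP, on the vertical axis against the distance of each gene's midpoint from the centre of the MMP cluster in kb. Filled orange points are MMP genes called higher, open orange points MMP genes under the filter and open grey points other genes, and the dashed line marks the fold minimum of 1. MMP7, MMP10, MMP1 and MMP13 stand at 3.54, 2.53, 5.33 and 2.82, and every flanking gene is under 1.

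The promoters of cluster genes are shown because 4 of these genes were called higher together. In the 3 shown, letters that match a pattern for AP-1 also lie near the letters of a TATA box. AP-1 is a factor long known to act on MMP promoters. Windows of 250 bases before to 50 bases after the start, from RefSeq on GRCh38.p14, were matched for 27 of the 46 members, among them MMP7 and MMP10 of the called cluster genes. MMP20, a cluster gene at or under 2 tags in every library, is given beside them. MMP8 and MMP27, the other cluster genes with a window, are not printed, as MMP8 held no AP-1 letters and MMP27 held neither set, so the 3 shown are those that held both. Capitals mark the AP-1 letters TGANTCA, where N is any base, and farther on the box letters TATAAA that usually fix where transcription starts. N was G in MMP7 and A in MMP10 and MMP20, so the marked AP-1 letters are not the same in all 3. Both were searched on both strands, and the marked matches do not overlap each other. The windows are chr11:102530698-102530997 for MMP7, chr11:102780579-102780878 for MMP10 and chr11:102625283-102625582 for MMP20, all minus strand and written 5′ to 3′.
MMP7: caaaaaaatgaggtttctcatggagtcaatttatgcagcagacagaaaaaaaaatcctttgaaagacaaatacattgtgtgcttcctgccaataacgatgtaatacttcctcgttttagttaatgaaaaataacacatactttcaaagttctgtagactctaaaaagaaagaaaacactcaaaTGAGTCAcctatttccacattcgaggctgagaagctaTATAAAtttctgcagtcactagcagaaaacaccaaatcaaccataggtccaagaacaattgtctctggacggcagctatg
MMP10: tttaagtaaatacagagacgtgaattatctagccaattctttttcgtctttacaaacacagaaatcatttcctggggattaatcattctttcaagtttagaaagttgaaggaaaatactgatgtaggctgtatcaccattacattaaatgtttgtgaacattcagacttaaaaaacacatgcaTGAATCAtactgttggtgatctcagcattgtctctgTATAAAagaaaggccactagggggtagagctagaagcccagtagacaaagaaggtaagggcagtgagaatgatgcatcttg
MMP20: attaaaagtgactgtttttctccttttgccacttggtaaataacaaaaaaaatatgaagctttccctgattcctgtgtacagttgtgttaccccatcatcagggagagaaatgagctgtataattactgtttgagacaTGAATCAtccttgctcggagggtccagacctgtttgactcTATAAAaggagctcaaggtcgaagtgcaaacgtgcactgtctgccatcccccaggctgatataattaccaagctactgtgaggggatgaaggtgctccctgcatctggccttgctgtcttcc
In MMP7 and in MMP10 the AP-1 letters began 67 bases before the start, and the TATA letters began 30 and 31 bases before it. MMP20 held both sets of letters too, 112 and 72 bases before the start. Over all 35116 promoter windows of this length, 7.71% held the AP-1 letters and 11.5% the TATA letters. Among the 27 members with a window, 4 held the AP-1 letters (ADAMTS12, MMP7, MMP10 and MMP20) and 7 the TATA letters (ADAMTS10, MMP7, MMP8, MMP10, MMP20, MMP21 and MMP26). Of these 8 genes, MMP7 and MMP10 were called higher and the others were not tested. These matches are a description of the letters and do not show that a factor was bound. Members without a window in the table were MMP1, MMP2, MMP3, MMP9, MMP12, MMP13, MMP16, MMP17, MMP19, MMP25, MMP28, ADAMTS1, ADAMTS4, ADAMTS5, ADAMTS8, ADAMTS9, ADAMTS15, ADAMTS16 and TIMP2.

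Among the ADAMTS proteoglycanases, which cut aggrecan and versican, ADAMTS1 and ADAMTS5 were called lower on polymer X and ADAMTS9 was not called. ADAMTS1 (transcript NM_006988, hg19 chromosome 21, 28208606 to 28217728, minus strand) was at 171 and 174 FPKM on TCP, more than any other member there, and at 5.58 and 6.42 FPKM on polymer X. The groups were far apart, and the mean was 28.8-fold lower (log2 fold change -4.64, SE 0.07, 95% interval -4.79 to -4.48, adjusted p 2.1e-10), the 16th largest absolute change among all tested genes. ADAMTS5, the main aggrecanase of mouse cartilage, was at 6.19 and 6.33 FPKM on TCP and at 0.820 and 0.591 on polymer X. Its mean was 8.87-fold lower (log2 fold change -2.09, SE 0.09, adjusted p 3.6e-08). ADAMTS1 and ADAMTS5 are neighbours on chromosome 21, 72.5 kb apart, and both lay lower in every polymer X library than in any TCP library.

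ADAMTS9 was at 4.38 and 4.41 FPKM on TCP and at 3.26 and 2.64 on polymer X (log2 fold change -0.45, SE 0.09, adjusted p 0.0011), a lower level that did not reach the fold minimum. ADAMTS15 had 58 and 81 tags on TCP against 64 and 46 on polymer X, so its groups overlapped. ADAMTS4 never had more than 7 tags and ADAMTS8 never more than 2, and ADAMTS20 was at 0 throughout. The proteoglycanase transcripts of these cells were therefore mainly those of ADAMTS1 on TCP, and of ADAMTS1 and ADAMTS9 on polymer X.

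The procollagen N-proteinases remove the amino-terminal propeptide of fibrillar procollagens. The kept transcript of ADAMTS2 (NM_021599) was at 5.047 and 5.996 FPKM on TCP and at 4.91 and 4.92 on polymer X. It was the tested member whose change was not told from 0 (log2 fold change -0.14, 95% interval -0.33 to 0.05, adjusted p 0.155). The other transcript of ADAMTS2 (NM_014244), which is the longer one, was at 3.00 and 3.56 FPKM on TCP and 5.29 and 5.23 on polymer X, which is 0.55 as a log2 fold change. The direction for ADAMTS2 thus depends on the transcript. ADAMTS14 was at 0.066 and 0.088 FPKM on TCP and 0.654 and 0.994 on polymer X, from 14 and 22 tags against 145 and 224, and was not tested. ADAMTS3 had at most 9 tags.

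ADAMTS7, which cleaves cartilage oligomeric matrix protein (COMP), was at 0.597 and 0.583 FPKM on TCP and at 5.15 and 4.47 FPKM on polymer X. Its mean was 8.15-fold higher (log2 fold change 1.87, SE 0.09, adjusted p 6.6e-08). ADAMTS12, the other COMP-cleaving member, had at most 2 tags. ADAMTS13, which trims von Willebrand factor and is made mainly in the liver, was at 0.296 and 0.368 FPKM on TCP and at 2.76 and 2.53 on polymer X. Its mean was 7.96-fold higher (log2 fold change 1.45, SE 0.08, adjusted p 3.0e-07). VWF, its substrate, was at or under 0.025 FPKM in all 4 libraries.

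ADAMTS17, which is known from inherited short stature, was at 0.543 and 0.510 FPKM on TCP and at 1.91 and 1.81 on polymer X (log2 fold change 0.90, SE 0.08, adjusted p 5.5e-06). ADAMTS6 was at 1.19 and 1.20 FPKM on TCP and at 0.583 and 0.351 on polymer X (log2 fold change -0.59, SE 0.10, adjusted p 0.00039). Neither passed the fold minimum at a pseudocount of 1, which understates changes at these levels. With a pseudocount of 0.1 both were called, at 1.64 for ADAMTS17 and -1.23 for ADAMTS6, and ADAMTS6 was also called, at the minimum itself, after quantile normalization. ADAMTS10, a fibrillin-binding member, was at 0.049 and 0.031 FPKM on TCP and 0.565 and 0.371 on polymer X and was not tested. ADAMTS16 had 35 and 45 tags on TCP and 11 and 17 on polymer X, the only untested member that was lower in both polymer X libraries. ADAMTS18 had 7 tags in a single polymer X library and 0 elsewhere, and ADAMTS19 was at 0 throughout.

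**Figure D4:**
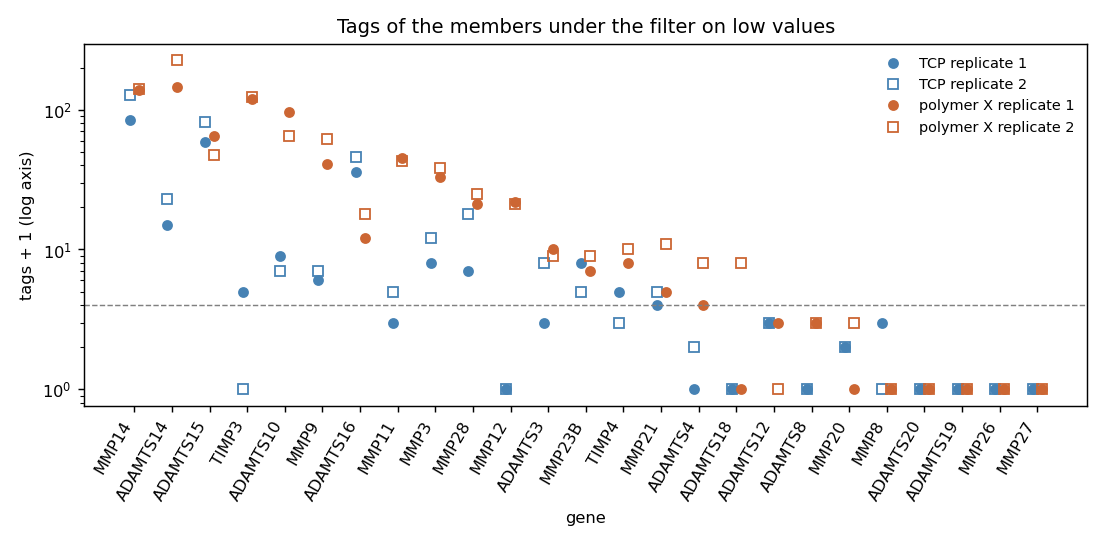
Tags plus 1, on a logarithmic axis, of the 25 members under the filter on low values in every library. Filled circles and open squares are replicates 1 and 2, blue is TCP and orange polymer X, and the dashed line marks 3 tags. MMP14 and ADAMTS14 are the most abundant of them, and ADAMTS19, ADAMTS20, MMP26 and MMP27 are at 0 in every library.

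Over the 25 members under the filter, 14 were higher in both polymer X libraries than in either TCP library, 1 was lower and 10 overlapped or tied. Among all 7511 genes under the filter, 28.3% were higher in both polymer X libraries. That share includes genes at 0 in every library, which cannot be higher, since only 16883 of the 19475 symbols had any signal. Shares for lower genes and for overlap were not taken. The 14 include ADAMTS8, at 2 tags in each polymer X library and 0 on TCP. At or under 3 tags in every library were 8 of the 25, for which a difference was not detectable at this depth. A limma fit with no filter on low values could include 21 of these 25, and 0 were called. A call was not possible for them at a pseudocount of 1. Each stayed under an FPKM of 1 in every library (at most 0.994, for ADAMTS14), so log2(FPKM + 1) could not change by 1. In that fit 11 had an unadjusted p under 0.05, the same number as with an adjusted p.

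The inhibitors TIMP1 and TIMP2 were among the most abundant members in both groups. TIMP1 (hg19 chromosome X, 47441690 to 47446190) was at 78.8 and 76.0 FPKM on TCP and at 186 and 179 FPKM on polymer X. Its mean was 2.35-fold higher (log2 fold change 1.22, SE 0.06, adjusted p 6.7e-08), and it was called. TIMP2 (hg19 chromosome 17, 76849059 to 76921472) was at 116 and 122 FPKM on TCP and at 205 and 202 on polymer X. Its mean was 1.71-fold higher (log2 fold change 0.77, SE 0.06, adjusted p 1.6e-06), which is under the fold minimum, and after quantile normalization it was called at 1.10.

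TIMP3, which binds to the matrix and inhibits ADAMTS and ADAM proteases as well as MMPs, had 4 and 0 tags on TCP and 119 and 122 tags on polymer X. At 0.543 and 0.547 FPKM on polymer X it was not tested, and its level there was far under those of TIMP1 and TIMP2. TIMP4 had 4 and 2 tags on TCP and 7 and 9 on polymer X. The spans of TIMP1, TIMP3 and TIMP4 overlap those of SYN1, SYN3 and SYN2 on the opposite strand. Whether their exons overlap was not checked, and the counting would not separate exons that do. SYN1 and SYN3 were at or under 0.169 FPKM, while SYN2 was at 3.04 and 3.21 FPKM on TCP and 3.95 and 4.48 on polymer X. The few tags of TIMP4 may therefore be uncertain. The span of TIMP2 overlaps that of CEP295NL, which was at or under 0.719 FPKM, on the same strand.

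The order of the levels differed between the groups. On TCP, ADAMTS1 was the highest at 173 FPKM (SD 1.85, n = 2), followed by TIMP2 at 119 (SD 4.70), TIMP1 at 77.4 (SD 1.96), MMP2 at 21.6 (SD 0.60) and MMP1 at 21.3 (SD 1.80). MMP2 and MMP1 overlapped between libraries and cannot be ordered. On polymer X, MMP1 was the highest at 893 FPKM (SD 7.43, n = 2), followed by TIMP2 at 204 (SD 2.21), TIMP1 at 182 (SD 4.93), MMP2 at 104 (SD 0.63), MMP13 at 18.6 (SD 2.34), MMP7 at 12.9 (SD 1.06) and MMP15 at 10.2 (SD 0.20). The libraries of neighbours in this order did not overlap.

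Summed over genes, proteases and inhibitors were both higher on polymer X, the proteases by a larger factor. With ADAMTS1 kept in the sum, this held for the proteases only with MMP1 included. The MMP and ADAMTS genes together summed to 257 and 260 FPKM on TCP and 1100 and 1084 on polymer X, and without MMP1 to 234 and 239 against 202 and 195, which is lower on polymer X. The MMP genes summed to 66.5 and 65.4 FPKM on TCP and to 1074 and 1058 on polymer X, a fold of 16.2. MMP1 made up 33.9% and 30.6% of this sum on TCP and 83.7% and 83.9% on polymer X, and without it the MMP sum was 43.9 and 45.4 FPKM against 175 and 170, a fold of 3.86. The ADAMTS genes summed to 190 and 194 FPKM on TCP and to 26.6 and 25.5 on polymer X, 7.38-fold lower. ADAMTS1 made up 90.1% and 89.7% of this sum on TCP, and without it the ADAMTS sums overlapped between the groups, at 18.8 and 20.1 FPKM against 21.0 and 19.1. The TIMP genes summed to 194 and 198 FPKM on TCP and to 392 and 382 on polymer X, a fold of 1.97.

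**Figure D5:**
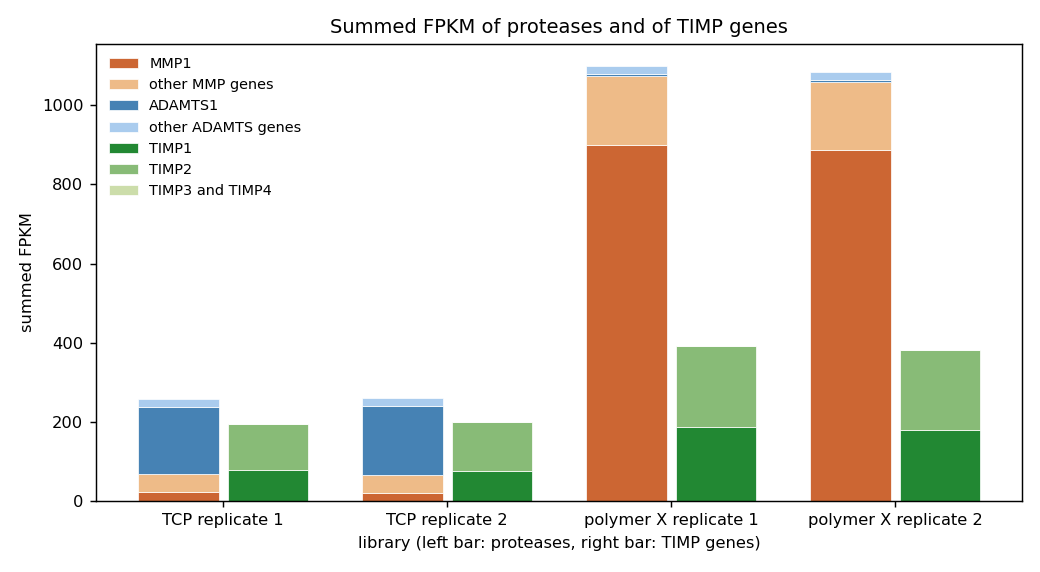
Summed FPKM in each library on a linear axis from 0, with MMP and ADAMTS genes stacked in the left bar and TIMP genes in the right bar of each pair. MMP1 (dark orange) fills 83.7% and 83.9% of the MMP sum on polymer X, ADAMTS1 (darker blue) fills 90.1% and 89.7% of the ADAMTS sum on TCP, and the TIMP bars (green) reach 392 and 382 FPKM on polymer X.

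The ratio of summed protease to summed TIMP levels was 1.32 and 1.31 on TCP and 2.81 and 2.84 on polymer X. The log2 change of the ratio was 1.10 with a replicate SD of 0.01, and the exact two-sided permutation test gave p = 0.333, the smallest p that 2 against 2 libraries allow. With ADAMTS1 kept in the sum, this direction depended on MMP1. Without MMP1 the ratio went the other way, from 1.21 in both TCP libraries to 0.515 and 0.512 on polymer X, a log2 change of -1.23. The sum without MMP1 still held ADAMTS1, which went from 171 and 174 FPKM on TCP to 5.58 and 6.42 on polymer X. Without MMP1 the MMP sum was 3.86-fold higher on polymer X, still a larger factor than the 1.97-fold of the TIMP sum. The ADAMTS sum without ADAMTS1 was 1.03-fold that on TCP. The ratio without both MMP1 and ADAMTS1 was not taken. Within the proteases the family sums moved in opposite directions. The MMP to TIMP ratio went from 0.342 and 0.330 to 2.74 and 2.77, and the ADAMTS to TIMP ratio from 0.979 in both TCP libraries to 0.0679 and 0.0668. The fall of the ADAMTS sum was that of ADAMTS1, since without it the sums overlapped, at 18.8 and 20.1 FPKM against 21.0 and 19.1. Of the 8 tested ADAMTS genes, 2 were called higher and 2 lower, against 10.7% and 9.45% of all tested genes.

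Ratios were also taken within pairs of protease and inhibitor. MMP1 to TIMP1 was 0.286 and 0.263 on TCP and 4.84 and 4.97 on polymer X. MMP2 to TIMP2 was 0.183 and 0.180 on TCP and 0.506 and 0.518 on polymer X, so TIMP2 transcripts remained more abundant than those of MMP2 in every library. MMP13 to TIMP1 went from 0.0221 and 0.0236 to 0.109 and 0.0950. MMP14 to TIMP2 was 0.00522 and 0.00641 on TCP and 0.00465 and 0.00472 on polymer X, a log2 change of -0.30 that was about the size of 2 replicate SDs (SD 0.15). These are ratios of transcript levels, and neither protein nor activity was measured here.

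Further genes of matrix proteolysis were described from lists with 54 genes in all, of which 33 were tested, 10 called higher and 4 lower, with a median log2 fold change of 0.37. Of all tested genes, 10.7% were called higher and 9.45% lower, with a median of -0.06. These shares are the background for every list below. Among 9 activators of MMP precursors, 7 were tested, and PCSK6 and PLAUR were called higher. The rest of those tested lay under 0 without a call. Their log2 fold changes were -0.72 for PCSK7, -0.38 for PLAT, -0.29 for FURIN, -0.21 for PLAU and -0.08 for PCSK5. The median over the tested activators was -0.21. PCSK6, a proprotein convertase, was at 1.32 and 1.51 FPKM on TCP and 10.1 and 9.63 on polymer X (log2 fold change 2.17, adjusted p 1.2e-08), and PLAUR, the urokinase receptor, was at 21.9 and 23.1 against 47.7 and 48.3 (log2 fold change 1.06, adjusted p 1.6e-07). The other 5 inhibitors of metalloproteinases included 2 tested genes and no call, with a log2 fold change of -0.57 for the membrane-anchored RECK and 0.45 for TFPI2.

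Of 7 ADAMTS-like genes, which share domains with ADAMTS proteases but lack the catalytic part, 5 were tested, with PAPLN and ADAMTSL4 called higher and ADAMTSL3 lower. PAPLN was at 4.18 and 4.25 FPKM on TCP and 34.7 and 35.9 on polymer X (log2 fold change 2.80). ADAMTSL4 changed by 1.33 and ADAMTSL3 by -1.26 on the same scale. Of 12 ADAM genes, which are membrane-bound relatives, 6 were tested, with ADAM8 called higher (log2 fold change 1.23) and ADAM9 lower (from 90.2 and 91.4 to 42.8 and 38.4 FPKM, log2 fold change -1.14). Of 5 astacin proteases 2 were tested and 0 were called, and both BMP1 (adjusted p 2.5e-05) and TLL1 (adjusted p 0.076) changed by less than the fold minimum.

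Among 4 partners of MMPs at the cell surface or in solution, all 4 were tested and 2 were called higher. LCN2, which forms a complex with MMP9, was at 0.997 and 1.25 FPKM on TCP and 25.6 and 25.2 on polymer X (log2 fold change 3.64), and LRP1, a receptor that clears MMPs and TIMPs, was at 6.55 and 6.85 against 33.8 and 39.5 (log2 fold change 2.29). Among 9 ADAMTS substrates, 5 were tested. VCAN, the versican that ADAMTS1, ADAMTS5 and ADAMTS9 cut, was called lower, from 32.4 and 33.7 to 13.8 and 13.4 FPKM (log2 fold change -1.22). COL3A1 and COL1A2, fibrillar collagens, and BCAN, a proteoglycan, were called higher, with log2 fold changes of 2.53, 2.23 and 1.18. COL1A1, another fibrillar collagen, lay the other way without a call, at 8.21 and 8.48 FPKM on TCP and 3.81 and 3.77 on polymer X (log2 fold change -0.96, adjusted p 9.3e-07). COL3A1 was at 0 and 0.041 FPKM on TCP against 5.26 and 4.55 on polymer X, and aggrecan itself (ACAN) was at 0 in every library.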

How the data were processed

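SKOV3 mRNA was sequenced in 2 TCP and 2 polymer X libraries. The authors deposited FPKM values for 50078 RefSeq transcripts on hg19, made with HOMER from tags on exons of both strands. According to the authors' processing notes in the labels, STAR 2.4.0, HOMER and DESeq were used, with no role given. The kit kept strand and the counting did not, so genes on opposite strands are not separated where their exons overlap. Overlaps were read from whole transcript spans and not from exons. The file header also names libraries on other substrates, which were not analysed here. FPKM times length fell on whole tags within 0.1 for 100% of the low values used. Groups at or under 3 tags in every library were treated as at the floor, between 0.0334 and 0.0391 FPKM for a transcript of 2000 bases, which covers counting error only.

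Where a symbol had several transcripts (10500 symbols), that of highest mean level was kept. The fit took the 11964 genes that reached an FPKM of 1 in 2 or more libraries and used limma 3.58.1 (R 4.3.3) on log2(FPKM + 1), with a variance trend and Benjamini-Hochberg adjustment over all of them. Fold changes on this scale understate the change of low genes. Sums and ratios of FPKM were compared with an exact permutation test. The 64 related genes were written from general knowledge, and 1 called gene of these lists is not reported here. Members and lists were chosen with earlier results of these data known. The text names every tested member, untested members with an FPKM of at least 0.5 in any library, the 3 largest calls per direction in each related list and every tested neighbour of the cluster, and other genes were named after their values were seen. Settings varied in turn were the pseudocount (0.1), the filter (none, or a mean of 5 FPKM), quantile or median scaling, the replicate block, other choices of transcript, no variance trend, other fold minimums and each library left out in turn. The procedure was tested on simulated data. Promoter windows came from RefSeq on GRCh38.p14 and were matched by symbol, and their coordinates are not those of hg19.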

Additional observations from a re-analysis of the deposited data

How the results depend on the processing

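The ratio of summed proteases to TIMP genes (log2 change 1.10) reversed to -1.23 without MMP1 and with ADAMTS1 kept. MMP1 is most of the protease sum on polymer X but not on TCP. The ratio changed by 1.30 without TIMP1, 1.70 with summed transcripts and 1.07 with the longest transcript. MMP1 has 2 listed transcripts and MMP2 has 5, at near-equal levels within each gene, and each TIMP gene has 1. Tags shared by transcripts can therefore enter the protease sum more than once when transcripts are summed. ADAMTS2 reversed to 0.19 with summed and 0.55 with the longest transcript. Members called higher (9) numbered 5 with a mean FPKM of at least 5, 14 with no fold minimum and 5 with a log2 minimum of 2. Members called lower (2) numbered 4 with a pseudocount of 0.1, 1 with a mean FPKM of at least 5, 4 after quantile normalization and 6 with no fold minimum. Under the same 3 settings as for members called higher, all genes called higher (1285) numbered 702, 4477 and 281, and related genes, cluster neighbours included, called higher (10) numbered 6, 22 and 6. With no fold minimum and with a minimum of 2, all genes called lower (1131) numbered 5212 and 150, and related genes called lower (4) numbered 16 and 1. A mean FPKM of at least 5 also moved the median of all genes from -0.06 to -0.20 and the share of calls that were higher from 53.2% to 42.2%.

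With a replicate block, 1285 genes were called higher and 1131 lower, and 9 members higher and 2 lower, as without it. Same-numbered libraries deviated with a correlation of 0.093, and 2 pairs do not show that the numbers pair them. Leaving out each library in turn, with the lone library of a group assumed to vary like the other group, gave 1289 to 1325 genes higher, 1053 to 1234 lower, 9 to 10 members higher and 2 lower, 10 to 12 related genes higher and 4 lower, and a ratio of 1.10 to 1.11. Over 262 values of single members under these alternatives, 248 kept their direction and side of the threshold, 10 gained a call, 2 lost it (both MMP19) and 2 reversed (both ADAMTS2). The calls gained were of ADAMTS6, ADAMTS17, MMP16, MMP17, MMP25 and TIMP2. Where only the threshold, filter or transcript changed, that change made the difference, and other causes were not tested. With 2 libraries a group the exact test cannot go below 0.333.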

Other observations

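Opposite-strand partners were read from the same table as values only. MMP24OS was at 29.1 and 27.7 FPKM on TCP and 37.6 and 35.1 on polymer X, and MMP24-AS1-EDEM2 at 9.95 and 9.08 against 12.5 and 12.4, beside 6.84 and 7.01 against 5.95 and 5.64 for MMP24 itself. Across members with several listed transcripts, the log2 fold changes of the transcripts stayed close together for ADAMTS13 (1.44 to 1.45), ADAMTS9 (-0.45 to -0.44) and MMP19 (1.05 to 1.08), and differed in sign for ADAMTS2. Transcripts of a gene can share tags, so close values are not independent.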
